A study of Mus musculus with 696 samples.

Results

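Hair follicle bulge cells were taken as the 70 of 696 sorted tail skin cells with the highest score on 6 genes: Lgr5, Thbs1, Grem1, Sfrp1, Angptl7 and Slc7a2. For each cell the counts were scaled to the same total (CPM, the usual per-library scaling of read counts), each gene's log2(CPM + 1) was turned into a z value over all 696 cells, and the score was the mean z of the 6 genes. The bulge is the lower permanent part of the hair follicle, and it holds slow-cycling stem cells that rebuild the growing follicle at each hair cycle. Bulge cells are known for the receptor Lgr5, the keratin Krt15, the surface protein Cd34 and the transcription factors Lhx2, Sox9 and Nfatc1, and for secreted inhibitors of Wnt and BMP signals. Lrig1 stem cells sit higher up, in the junctional zone below the opening of the follicle.

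The cells came from female mice of mixed CBA C57BL/6 background that carried Lrig1-EGFP-ires-CreERT2 and Rosa26-fl/STOP/fl-tdTomato. All mice, unwounded ones included, received 1 topical dose of hydroxytamoxifen on the tail at 6 to 8 weeks of age, so that Lrig1 expressing cells and their progeny turned tdTomato positive, and these cells were sorted from a zone with the wound bed and the follicles around it. Bulge cells therefore entered the data only if they, or a cell they came from, had been labelled through Lrig1-CreERT2. Skin was taken without a wound (0w), in the first week of repair of a full-thickness wound (called 1w pw1), when that wound was 8 weeks old (8w pw1), and a week into repair of a second wound placed over it (1w pw2). Each time point had 2 plates of single cells (replicates 1 and 2), and no well of a plate was listed for more than 1 cell. In what follows 0w and 8w pw1 are called resting and 1w pw1 and 1w pw2 healing. The single-cell work consisted of 2 independent experiments with 4 biological replicates each, but the labels do not tie these to plates. The p-values thus measure the spread between plates, which may be technical and on healing plates holds the spread between single cells. The sample titles carry 1 replicate letter per time point, and whatever it marks cannot be told apart from time.

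The score fell off without a gap. It ran from 3.23 down to 0.6897 in the last bulge cell, and the first cell left out had 0.68966. Within 0.1 of that limit lay 7 bulge cells above and 7 other cells below. The class is thus cut from a continuous score, and these values do not show whether it is a separate type. Of the bulge cells 10 had reads of 2 of the 6 genes, 28 of 3, 20 of 4, 11 of 5 and 1 of all 6. Of the 626 other cells, 8 had reads of 3 or more, and 373 had none of the 6. Lgr5, the R-spondin receptor of stem cells, was detected in 70% of the bulge cells and 7.83% of the others. Thbs1, the matrix protein thrombospondin-1, was detected in 87.1% and 18.4%, and Sfrp1, a secreted Wnt inhibitor, in 75.7% and 14.5%. The BMP antagonist Grem1 was detected in 34.3% and 1.12%, the secreted Angptl7 in 32.9% and 3.19%, and the cationic amino acid transporter Slc7a2 in 50% and 8.79%. These differences chose the cells and are given with no test.

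**Figure D1:**
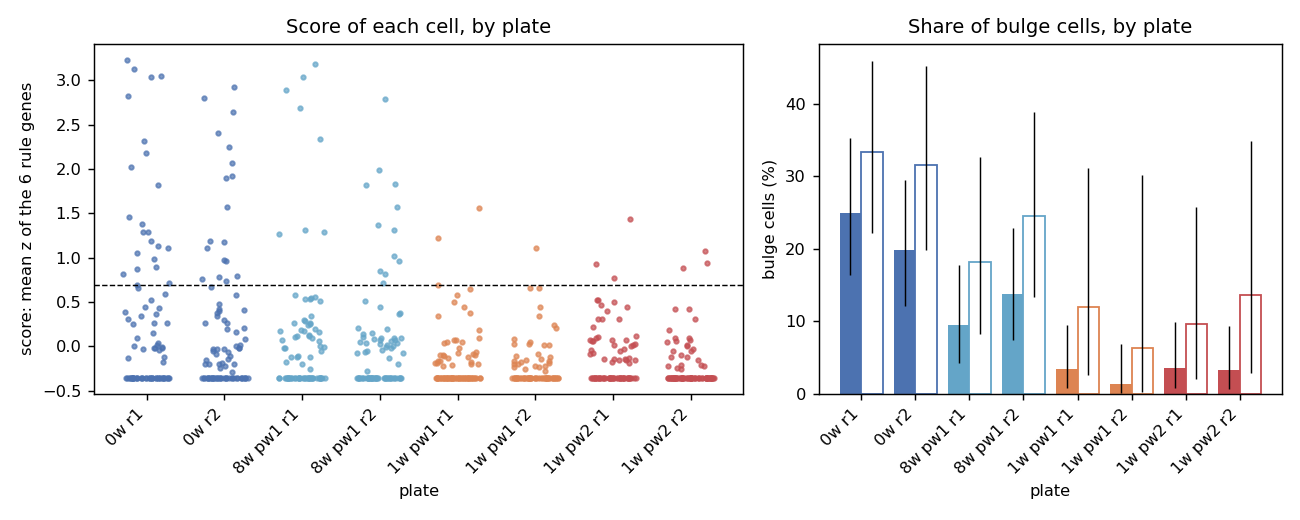
Left, score (mean z of the 6 genes) of each of the 696 cells on its plate (r, replicate), with the limit as a dashed line. Right, bulge cells in percent of all cells of the plate (filled bars) and of bulge plus other basal cells (open bars), with 95% Clopper-Pearson intervals. The 2 plates of 0w hold the largest shares, 25% and 19.8% of all cells, and 60 of the 70 bulge cells lie on the 4 resting plates.

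Most bulge cells came from resting skin. They made up 22 of 88 and 18 of 91 cells on the 0w plates, 8 of 85 and 12 of 87 on the 8w pw1 plates, 3 of 89 and 1 of 79 on the 1w pw1 plates, and 3 of 86 and 3 of 91 on the 1w pw2 plates. For the resting time points the share was 22.3% before wounding (95% Clopper-Pearson interval 16.5% to 29.2%) and 11.6% in 8w pw1 (7.25% to 17.4%). For the healing ones it was 2.38% after the first wound (0.652% to 5.98%) and 3.39% after the second (1.25% to 7.23%). Every resting plate lay above every healing plate, which is a description, since the rule set the shares. By a score on 6 other bulge genes this order did not hold: 8w pw1 replicate 2 had 7 cells and 1w pw2 replicate 1 had 8. The intervals cover counting error only. Against basal-like cells alone (the 240 other cells with log2(CPM + 1) of at least 5 for Krt5, the basal keratin, and below 5 for Krt1, a keratin of differentiating cells) the bulge cells were 32.5% and 21.5% in resting skin, 0w first, and 9.76% and 11.3% in healing skin, 1w pw1 first. Fewer bulge cells in the sort and lower levels of the 6 genes per cell cannot be told apart here.

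Over all plates the bulge cells had a median of 106046 counts and 4109 genes, against 134689 counts and 4483 genes, and mitochondrial genes gave a median of 23.7% of their counts against 19.97%. Total counts ranged from 8031 to 948913 per bulge cell. When each plate's bulge cells were summed, the deepest cell gave 13.4% to 51.2% of the counts on the resting plates and 52.0% to 100% on the healing plates, so values of the healing plates rest on 1 to 3 cells. The median depth of bulge cells was below that of the other cells on all 4 resting plates (0w replicate 2 was at 67261 against 129527 counts) and above it on 3 of 4 healing plates (1w pw2 replicate 2 was at 392648 against 135812). Comparisons with the other cells below use the 4 resting plates, each with at least 8 bulge cells.

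The label was compared with 25 bulge markers outside the rule. Their list was chosen with earlier results of these data known, so it is no independent check. On all 4 resting plates, 10 of the 25 were higher in the summed bulge cells than in the other cells, and 4 were lower. Of the 15646 genes outside the rule, 3.99% were higher on all 4 plates and 15.7% lower. No test is given, because the cells were chosen on expression. Krt15, which marks bulge and basal cells, had reads in all 70 bulge cells and in 40.9% of the others. With the plates in the order 0w replicates 1 and 2, then 8w pw1 replicates 1 and 2, its CPM was 1183, 1019, 1425 and 3523 in the bulge cells and 634, 531, 476 and 223 in the other cells. The Krt15 groups did not overlap (median log2 ratio 1.26, SD 1.45), and against the other basal cells alone the median log2 ratio was 0.40. In that narrower comparison 9 of the 25 markers were higher on all 4 plates and 2, Nfatc1 and Fst, lower, while 3.73% of all genes were higher and 11.3% lower.

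Cd34, the classical surface marker of bulge stem cells in mouse, set the bulge cells apart more strongly. Its CPM was 103, 44.1, 106 and 135 in the bulge cells of the resting plates, in the same plate order, and 1.22, 1.71, 3.13 and 0.72 in the other cells. The median log2 ratio of CPM + 1 was 5.12 (SD 0.98, n = 4 plates), and 4.89 against the other basal cells. Cd34 was nonetheless detected in only 29 of the 70 cells (41.4%, against 12.6% of the others). Lhx2, a transcription factor needed to keep bulge cells quiescent, was at 164, 199, 142 and 243 CPM against 10.8, 14.0, 36.5 and 3.27 CPM. Its median log2 ratio of 3.77 (SD 1.60, n = 4) was the highest among genes outside the rule that were detected in at least 50% of the bulge cells and higher on all 4 plates.

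The other markers that were higher on all 4 resting plates were Dkk3, a secreted relative of Wnt inhibitors (median log2 ratio 2.70), Ccn2, a matricellular growth factor (2.66), the transcription factor Tbx1 (1.83), the matrix protein Npnt (1.73), Fgf1 (1.49), the hemidesmosomal collagen Col17a1 (1.08) and Postn, the matrix protein periostin (0.66). The order of the last 5 has no weight, because their SDs over plates ran from 0.53 to 1.57. Postn was higher than in the other basal cells on only 2 of the 4 plates (median log2 ratio −0.04).

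Not every textbook bulge gene followed. Nfatc1, a transcription factor that holds bulge cells out of the cell cycle, was lower on all 4 resting plates, at 33.3, 2.55, 50.8 and 46.6 CPM against 90.7, 68.2, 70.6 and 73.0 CPM. Foxc1 and the activin antagonist Fst were lower too, with median log2 ratios of −2.98 and −3.67. Cd200 was lower by counts (median −1.08), although it was detected in more of the bulge cells (40%) than of the others (26.7%). Sox9 (77.1% and 71.9% of cells) and Tcf7l2 (98.6% and 95.2%) hardly separated the groups. Fgf18 was found in 1 bulge cell. Of these markers Krt15 alone had reads in every bulge cell, while Lhx2 had none in 22 and Cd34 none in 41 of the 70.

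**Figure D2:**
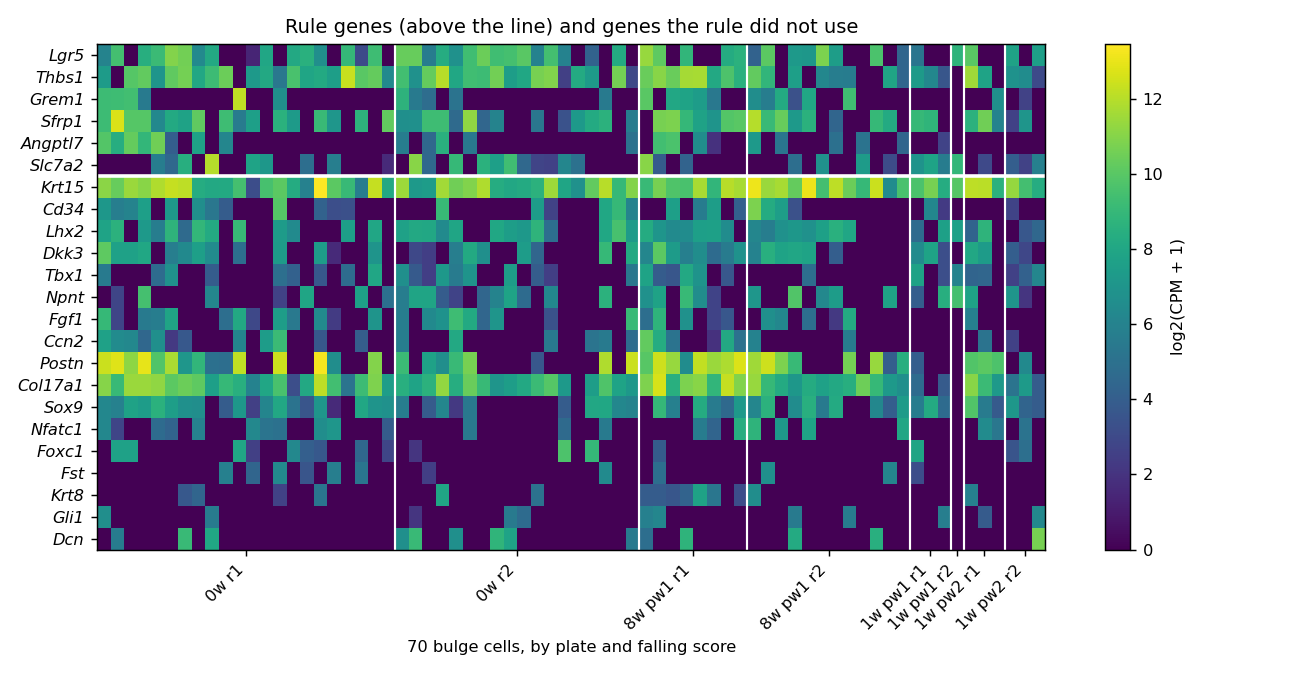
Level of 23 genes, as log2(CPM + 1), in each of the 70 bulge cells, ordered by plate and, within a plate, by falling score. The 6 genes of the rule stand above the white line and differ from cell to cell, Krt15 is present in every cell, and Cd34 has reads in 26 of the 60 resting cells and 3 of the 10 healing cells.

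Most genes of the junctional zone and isthmus were low. Of 10 junctional zone and isthmus genes, 7 were lower in the bulge cells on all 4 resting plates and 1, Gli1, was higher, against 15.7% and 3.99% of all genes. Against the other basal cells 6 of the 10 were lower on all 4 plates and 0 higher, where 11.3% of all genes were lower. Defb6, a beta-defensin of the upper follicle, was at 41.3, 1.09, 0 and 7.03 CPM in the bulge cells against 2329, 9470, 7870 and 12091 CPM in the other cells. Cst6, a protease inhibitor of the follicle opening, was at 543, 2.91, 5.08 and 20.6 CPM against 7061, 4118, 12177 and 12214 CPM. Krt79, a keratin of the follicle duct, and Gata6, the transcription factor of duct cells, had median log2 ratios of −7.48 and −5.26. Gata6 was found in 2 of the 70 bulge cells (2.86%, against 38.2%). Among the resting plates 0w replicate 1 had the highest bulge values of Defb6, Cst6 and Gata6, the last at 8.02 CPM and at 0 on the other 3. Lrig1, whose promoter drove the Cre, was detected in 44.3% of the bulge cells and 45.2% of the others, with a median log2 ratio of −0.25.

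Of 8 interfollicular basal genes, 3 were lower on all 4 resting plates (Ly6d, Krt14 and Ly6a) and 0 higher, where 15.7% of all genes were lower and 3.99% higher. Ly6d was detected in 22.9% of the bulge cells and 90.6% of the others (87.5% of the other basal cells), and Krt14, the basal keratin, was at 614, 356, 1084 and 1329 CPM against 1224, 1103, 2489 and 3587 CPM. Krt5, the partner of Krt14, was close in both (median log2 ratio 0.27). Of 10 genes of differentiated epidermis 9 were lower on all 4 resting plates, with Skint3 (−8.45), Calm4 (−6.13), Krt1 (−5.63) and Krtdap (−5.59) leading. Of 10 sebaceous gland genes 6 were lower, among them the lipid enzymes Scd1 (−3.61) and Far2 (−5.32). Against other basal cells, 3 of the differentiated and 0 of the sebaceous genes were lower on all 4 plates. Of 7 genes of the hair germ and lower follicle, 1 was higher on all 4 plates, the P-cadherin gene Cdh3 (median log2 ratio 1.05), and of 14 keratins 1 was higher (Krt15), near the share over all genes, and 8 lower.

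Some markers of other cell types were present. Of 7 fibroblast genes, Sparc and Dcn were higher on all 4 resting plates and 0 lower, against 3.99% and 15.7% of all genes. The median log2 ratio of the 7 was 0.26. Dcn, the matrix proteoglycan decorin, was detected in 14 bulge cells (20%, against 2.56%), while Pdgfra was at 0 in every bulge cell and Col1a1 was detected in 1. Summed over the 7 fibroblast genes, the bulge cells of the resting plates held 144 to 266 CPM and the other cells 22.4 to 95.5 CPM, with no overlap. Krt8, a keratin of Merkel cells and the 1 gene of that list analysed here, was detected in 15 bulge cells (21.4%) and in 4 of the 626 others. On 8w pw1 replicate 1 it was in 7 of 8 bulge cells and on 8w pw1 replicate 2 in 1 of 12. On the resting plates the 3 immune genes summed to at most 2.03 CPM and the 3 melanocyte genes to 12.8 to 78.3 CPM, and the endothelial gene Kdr was at 0 in every bulge cell. The endothelial gene Pecam1 had reads in 100% of the bulge cells and 98.6% of the others, so it told no cell type apart in these libraries. The part of other cell types in the results was not tested.

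Among all genes outside the rule, members of the lists included, the leading ones were found by a fixed criterion: detected in at least 50% of the bulge cells and higher on all 4 resting plates. Of 2895 genes detected that widely, 245 were higher on all 4 plates and 22 were over 2-fold higher on each. Behind Lhx2 came Cxcl14, a chemokine of epithelia, at 138, 156, 207 and 51.1 CPM against 4.08, 11.2, 17.7 and 3.99 CPM (median log2 ratio 3.58, SD 0.64). Crip1, a small LIM-domain protein, had a median of 3.28 and the smallest SD over the 4 plates among the 25 leading genes, 0.18. The Crip1 ratio moved by more than that SD in 5 of 10 other settings, to 2.71 against other basal cells and to 6.95 by the median over cells. Hmcn1, an extracellular matrix protein of basement membranes, had a median log2 ratio of 3.25 and was detected in 60% of bulge cells against 10.2%. These were followed by Setbp1 (3.09), Ccdc3 (3.05), the amino acid transporter Slc38a4 (2.73), Dkk3 (2.70), the zinc transporter Slc39a10 (2.55), Runx1 (2.51), Fstl1 (2.41), the collagen-binding integrin Itga2 (2.38) and Matn2 (2.27).

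The taurine transporter Slc6a6 was almost universal, with reads in 97.1% of the bulge cells and 60.5% of the others. It was at 1181, 378, 2016 and 464 CPM against 236, 134, 393 and 102 CPM (median log2 ratio 2.25, SD 0.41). Hoxd10 (2.24), a homeobox gene of posterior and limb skin, Sertad4 (2.20), the Hedgehog effector Gli3 (2.15), Sparc (2.09), Dmd (2.04), Lypd6b (1.97), the ephrin receptor Ephb4 (1.97), Tnfaip8 (1.94), Shisa2 (1.91), Vwa2 (1.91) and Lmo4 (1.85) completed the 25 genes. Against other basal cells, Lypd6b was further apart (3.50), Shisa2 was higher on only 2 of 4 plates (0.82), and Matn2, Gli3 and Ephb4 were higher on 3 of 4. The lowest genes by the mirrored rule were Defb6 (−11.35), Cst6 (−9.59), the retinoid and lipid enzyme gene Sdr16c6 (−8.95), Krt79 (−7.48), Skint1 (−7.23), Ly6g6c (−7.15), Skint4 (−7.14), the ion transporter Slc12a2 (−6.63), Serpinb3b (−6.19) and Calm4 (−6.13). Their SDs over plates ran from 1.09 to 3.59, and Slc12a2 was nearly equal on 0w replicate 1, at 157.9 CPM in bulge and 162.0 CPM in other cells. Slc12a2 and Calm4 were each higher than in the other basal cells on 1 of the 4 plates. Across genes, the ratios of 2 resting plates correlated with r between 0.68 and 0.82, where genes are not independent replicates and plates of 1 time point share their design.

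**Figure D3:**
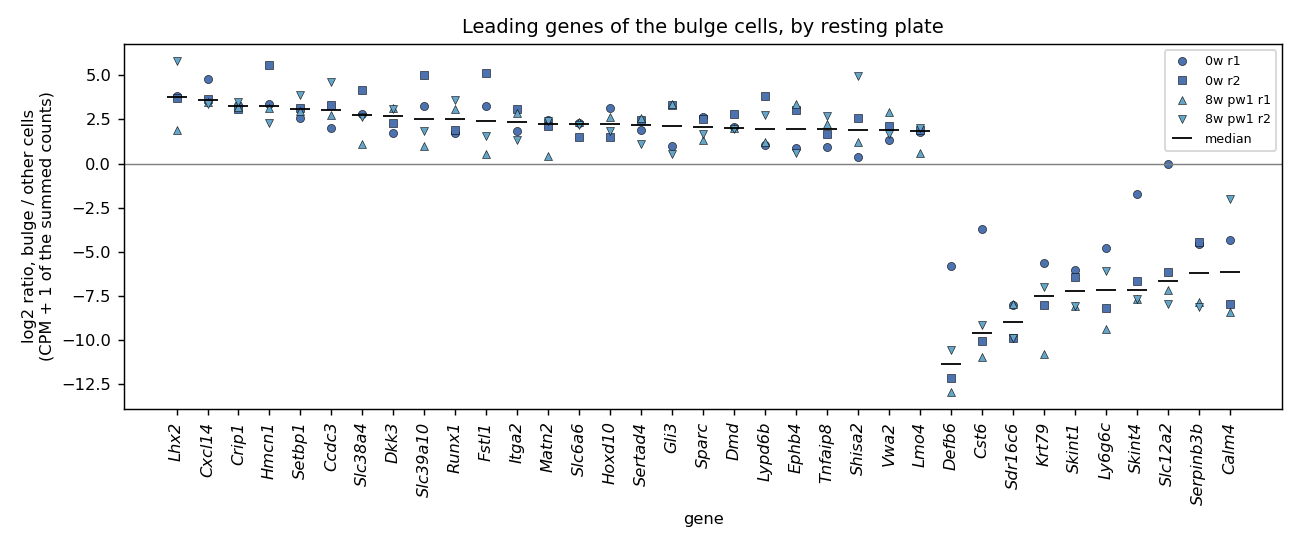
Log2 ratio of CPM + 1 between the summed bulge cells and the summed other cells, for the 25 leading higher and 10 leading lower genes, on each of the 4 resting plates. Bars mark the median, which runs from 3.77 for Lhx2 to 1.85 for Lmo4 and reaches −11.35 for Defb6. All points of a gene lie on the same side of 0 by the rule.

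Of 28 basement membrane and matrix genes outside the rule, in a list chosen with earlier results of these data known, 9 were higher on all 4 resting plates and 0 lower, against 3.99% and 15.7% of all genes (median log2 ratio 1.45, against −0.21 over all genes). Tnc, the matrix protein tenascin-C, was at 21.2, 14.9, 147 and 14.1 CPM against 0, 0.06, 15.3 and 1.57 CPM. The laminin-332 chains Lama3 and Lamb3 had medians of 1.35 and 1.55, and the collagens Col4a2 and Col18a1 had 1.30 and 1.83. Timp2, an inhibitor of matrix proteases, had 1.73. Among 14 hemidesmosome and integrin genes, Col17a1, Dst, Itga2 and Itgb1 were higher on all 4 plates and 0 lower. Against other basal cells 6 of the 28 and 2 of the 14 were higher on all 4 plates, and 0 and 1 lower.

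Of 18 transcription factors, Lhx2, Tbx1, Runx1 and Foxp1 (1.65) were higher on all 4 resting plates, and Nfatc1, Foxc1 and Grhl3 (−3.59), a factor of differentiation, were lower, the latter 3 of 18 being near the 15.7% of all genes. Of 34 Wnt pathway genes outside the rule 2 were higher and 6 lower, shares near the 3.99% and 15.7% over all genes. Dkk3 and Ctnnb1 (0.59), which encodes beta-catenin, were higher. The ligands Wnt3 (−1.65), Wnt4 (−1.19) and Wnt16 (−2.16), the receptor Lgr6 (−1.34) and the feedback targets Axin2 (−1.22) and Rnf43 (−2.09) were lower. Axin2 was rare in either group, with reads in 7.14% and 10.4% of cells. Of 28 genes of BMP, TGF-beta, activin and FGF signals 5 were higher and 3 lower, the latter again near the share over all genes. The BMP targets Id2 (1.2) and Id3 (1.67) were higher with Fstl1, Fgf1 and the receptor Fgfr3 (0.90). Bmp7 (−1.85), Fst and Tgfb1 (−0.94) were lower. Id2 was detected in 74.3% of the bulge cells and 33.1% of the others.

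Cell cycle genes were low in the summed bulge cells of the resting plates. Of 35 genes, 24 were lower on all 4 resting plates and 0 higher, where 15.7% of all genes were lower and 3.99% higher. Against other basal cells 27 of the 35 were lower, where 11.3% of all genes were. Mki67, a marker of dividing cells, was at 64.2, 1.09, 0 and 5.75 CPM in the bulge cells against 257, 184, 38.4 and 145 CPM. Cell by cell, 2 of 60 bulge cells of the resting plates (3.33%) had reads of at least 15 of the 35 genes, against 40 of 291 other cells (13.7%) and 35 of 156 other basal cells (22.4%). The median cell was not lower than that of the other cells. Its CPM summed over the 35 genes was 327 in resting bulge cells, 279 in other cells and 492 in other basal cells. On the healing plates 4 of 10 bulge cells had that many, against 24 of 335 other cells and 16 of 84 other basal cells. Such a count moves with depth: the median was 92532 counts in resting and 205489 in healing bulge cells, against 109637 and 165082 in the other basal cells. The part of depth was not tested.

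Of 19 interferon and antigen presentation genes, 6 were lower on all 4 resting plates and 0 higher, where 15.7% of all genes were lower. These included the classical MHC class I genes H2-D1 (−2.16) and H2-K1 (−1.99), and B2m (−1.09), the shared chain of class I molecules. MHC class I genes are close copies of one another, so their reads may be split. Of 25 wound activation genes, S100a6 (0.51) was higher, 1 of 25 being the share over all genes, and 8 were lower against 15.7% of all genes, among them Sprr1a (−6.19), Il1rn (−4.12) and Krt6a (−1.49). Against other basal cells 3 of the 25 were lower on all 4 plates and 0 higher, with 11.3% of all genes lower, a share close to it. Of 20 immediate early and heat shock genes 5 were higher, Fos (0.68) and Nr4a1 (1.61) among them, and 3 were lower, near the share over all genes. Of 22 genes of glycolysis and hypoxia, 4 were lower and 0 higher, close to the 15.7% of all genes that were lower.

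The bulge cells differed among themselves. Across the 70 cells, which share plates and differ in depth, Slc7a2 correlated negatively with Sfrp1 (Pearson r = −0.43), Cd34 (−0.38), Cxcl14 (−0.38) and Angptl7 (−0.33), and positively with Dcn (0.42) and Gli1 (0.32). Of the 35 cells with Slc7a2, 9 had Cd34, against 20 of the 35 without it. A second set ran together: Cd34 correlated with Cxcl14 (0.44), Angptl7 (0.40), Krt8 (0.39) and Sfrp1 (0.32), and Krt8 with Cxcl14 (0.45). Of the 14 cells with Dcn, 13 had Lgr5 and 10 had Slc7a2. Choosing cells on a mean of 6 genes by itself favours negative relations between those 6. It also acts on pairs with a gene that follows one of the 6, such as Cd34, so these values describe the chosen cells only. In sparse counts such correlations are weak, and they are given with no test.

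**Figure D4:**
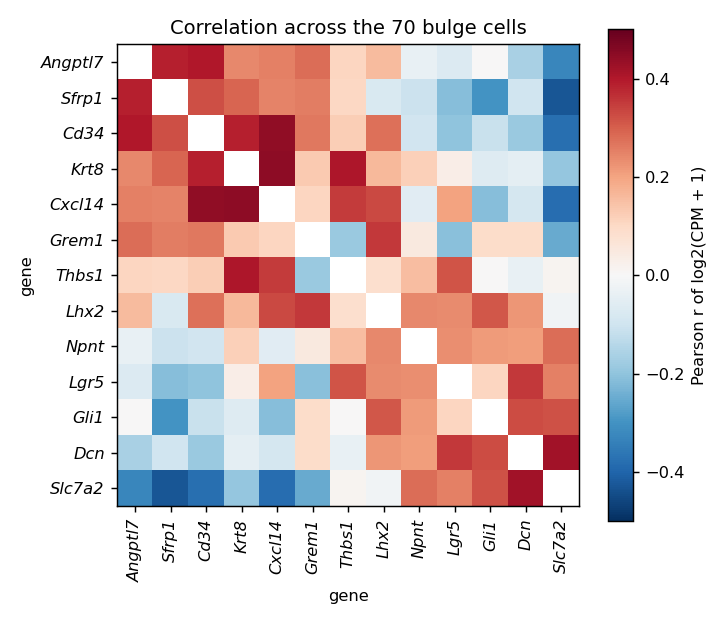
Pearson correlation of log2(CPM + 1) between 13 genes across the 70 bulge cells (colour scale from −0.5 to 0.5). Cd34, Cxcl14, Krt8, Angptl7 and Sfrp1 form a block of positive values, and Slc7a2 with Dcn and Gli1 a second one, with negative values between Slc7a2 and the first block.

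Resting bulge cells before and after a healed wound were compared first, since only these plates had at least 5 cells each. No gene passed among 8897 tested in 8w pw1 against 0w (edgeR quasi-likelihood test on the summed counts of each plate, adjusted p below 0.05 and over 2-fold; 0% called). The smallest adjusted p was 0.771, with 540 genes under 0.05 before adjustment. On the same sums 75 genes passed in DESeq2, 38 higher and 37 lower. Leaving out replicate 1 or replicate 2 of 8w pw1 gave 113 and 253 edgeR calls, where the lone 8w pw1 plate is assumed to vary like the 0w plates. Among the genes of smallest p was Bhlhe41, a clock-linked transcriptional repressor. It was at 5143 and 3797 CPM on the 0w plates and 18189 and 27284 CPM on the 8w pw1 plates (log2 fold change 2.59, SE 0.46, edgeR adjusted p = 0.771). The other cells of the same plates held 4646, 2582, 8724 and 14291 CPM, in the same direction. Of the 25 bulge markers outside the rule, 23 were tested, 15 had a positive and 8 a negative fold change, and 0 were called. Krt15 (log2 fold change 1.43, SE 0.68), Cd34 (0.95, SE 1.00) and Lhx2 (0.32, SE 0.88) gave no call. With such errors a 2-fold change in Krt15, Cd34 or Lhx2 was not detectable.

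Healing skin gave few bulge cells, so the following fits rest on plates with 1 to 3 cells. Their p-values cannot separate the spread between healing plates from the spread between single cells. These cells also lay lower in the score. The highest of them ranked 29 of 70 (1.56) and the lowest 70, while resting cells reached 3.23. Over the 4 healing plates against the 4 resting plates, 9 of 9377 genes passed (0.096% called), 8 lower and 1 higher, with 1130 genes under 0.05 before adjustment. The median log2 fold change over all genes was −0.55. The lower genes were Prss23, Postn, Bhlhe41, the mitochondrial genes mt-Atp6, mt-Atp8, mt-Nd1 and mt-Co2, and the predicted gene Gm20594. The higher one was the predicted gene Gm10800 (log2 fold change 4.44, SE 0.81, edgeR adjusted p = 0.0157). Both predicted genes lie outside the naming rule and were named after their values were seen. Without replicate 1 of 1w pw1 only 1 gene passed, and without replicate 2 of 8w pw1 51 did. DESeq2 called 232 genes. In 1w pw1 against 0w edgeR called 0 genes (0% called), with 984 under 0.05 before adjustment and 127 in DESeq2.

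Prss23, which encodes a secreted serine protease (chromosome 7, 89507783 to 89527187, minus strand, GRCm38), fell in healing skin. It was at 478 and 33.2 CPM at 0w, 774 and 360 CPM at 8w pw1 and 0 on all 4 healing plates. Reads were found in 27 of the 60 resting bulge cells (16, 4, 4 and 3 per plate) and 0 of the 10 healing cells. The pooled level of 368 CPM in resting skin was 334-fold a floor of 3 counts over the healing plates, and 152-fold without replicate 2 of 1w pw2. These ratios cover the counting of pooled reads and not the spread between cells. The contrast between healing and resting skin was called (edgeR adjusted p = 0.00408). The other cells held 17.5, 26.6, 53.7 and 110 CPM in resting skin and 10.3, 6.46, 43.6 and 269 CPM in healing skin, in plate order with 1w pw1 before 1w pw2. They were thus below every resting plate after the first wound, and highest on replicate 2 of 1w pw2. The difference between the bulge cells' and the other cells' response was itself called (fitted log2 difference −15.96, SE 2.58, edgeR adjusted p = 0.0231), a size that depends on the prior count. That call was lost without replicate 2 of 1w pw2 (adjusted p = 0.223) and without replicate 1 of 1w pw1 (adjusted p = 0.0588).

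Pdlim3, which encodes an actin-associated LIM protein (chromosome 8, 45885461 to 45919548, plus strand, GRCm38), was the other gene called in that comparison, among 12424 genes (0.0161% called, 680 under 0.05 before adjustment). Its CPM in the bulge cells was 18.9 and 79.4 at 0w, 440 and 12.1 at 8w pw1 and 0 on the healing plates, with reads in 7, 2, 5 and 3 resting cells. The other cells held 5.27, 9.62, 34.7 and 4.41 CPM in resting skin, and 58.3, 36.3, 40.6 and 25.7 CPM in healing skin. The fitted log2 difference was −13.96 (SE 2.41, edgeR adjusted p = 0.0314). It was not called without replicate 1 of 1w pw1, of 1w pw2 or of 8w pw1, nor without replicate 2 of 1w pw2, where adjusted p was 0.0660 to 0.123. Cd34 was at 3.47, 0, 0 and 1.49 CPM in the healing bulge cells, far below the resting plates, but gave no call (log2 fold change −6.30, SE 1.58, edgeR adjusted p = 0.133). No healing bulge cell scored above 1.56, while resting ones reached 3.23, and the part of the score in this difference was not tested.

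Postn (chromosome 3, 54361109 to 54391037, plus strand, GRCm38) fell from 2114, 482, 3322 and 406 CPM on the resting plates to 7.14, 0, 969 and 53.3 CPM on the healing plates. The fitted log2 fold change was −5.35 (SE 1.00, edgeR adjusted p = 0.0199), and replicate 1 of 1w pw2 overlapped the resting range. Without replicate 1 or replicate 2 of 1w pw1 the adjusted p was 0.0506 and 0.0612. In the other cells Postn was at 1124, 418, 609 and 305 CPM in resting and 78.8, 111, 140 and 308 CPM in healing skin. Of 24 matrix genes tested 22 had a negative fold change, with 1 called and a median of −3.79, against −0.55 over all genes. Relative to the response of the other cells, 20 of 26 matrix genes were negative with a median of −1.56, against −0.67 over all genes, and 0 were called. The 2 wounds were not tested against each other, and 1w pw1 rests on 4 bulge cells and 1w pw2 on 6. Against 0w, 21 of the 24 matrix genes were negative at 1w pw1 (median −5.93, against −0.78 over all genes). At 1w pw2 16 of the 24 were negative and 8 positive (median −0.59, against −0.19 over all genes), and 0 were called at either time point. Between healing and resting skin, 17 of 21 bulge markers outside the rule had a negative fold change, with 1 called and a median of −2.06. The called one was again Postn, which is also used as a marker of the infundibulum, the follicle's upper opening, and was no higher here than in other basal cells of resting skin. Against 0w the median of these 21 markers was −2.59 at 1w pw1 (19 negative) and −0.55 at 1w pw2 (16 negative), with 0 called. The part of the lower scores of healing cells in these values was not tested. Between healing and resting skin, 3 of 4 fibroblast genes were negative (median −3.21), and 6 of 8 genes of differentiated epidermis were positive (median 2.29), with 0 called in either list. Against 0w the fibroblast median was −5.74 at 1w pw1 and −0.13 at 1w pw2. For differentiated epidermis it was 0.19 at 1w pw1 (4 of 8 positive) and 6.28 at 1w pw2 (8 of 8 positive). The bulge markers, too, were closer relative to the other cells (18 of 24 negative, 0 called, median −1.32). The part of these cell types in the difference between healing and resting bulge cells was not tested. Col17a1 (−3.77, SE 0.95) did not pass with an adjusted p of 0.133. Fewer cells with a transcript and less of it per cell cannot be told apart in such sums.

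Of the mitochondrial genes mt-Atp6, mt-Atp8, mt-Nd1 and mt-Co2 fell, and so did Bhlhe41 (log2 fold change −2.83, SE 0.53, edgeR adjusted p = 0.0199). Bhlhe41 was at 771, 303, 11789 and 645 CPM on the healing plates, so that replicate 1 of 1w pw2 lay above both 0w plates. In that plate 1 cell held 42741 CPM of Bhlhe41. The ATP synthase gene mt-Atp6 was at 37535, 40893, 35647 and 57993 CPM in resting and 14569, 33765, 15694 and 8769 CPM in healing bulge cells (log2 fold change −1.75, SE 0.23, edgeR adjusted p = 0.000898). The other cells held 39877, 50455, 29233 and 44887 CPM and then 20930, 35075, 17473 and 38988 CPM. The share of all mitochondrial genes in the summed bulge cells was 25.2%, 30.9%, 26.7% and 27.9% on the resting plates and 24.4%, 24.4%, 18.6% and 18.5% on the healing plates. The part of this share in the calls was not tested. Without replicate 1 of 1w pw1 none of these 5 genes passed (adjusted p 0.0506 to 0.0664), and without replicate 2 of 1w pw1 Bhlhe41, mt-Atp8 and mt-Co2 did not (0.0638 to 0.0900).

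Immediate early and heat shock genes gave no call. Of 20 tested, 18 had a positive fold change in healing skin, 0 were called, and their median was 1.5 against −0.55 over all genes. Atf3, a stress-induced transcription factor, was at 13.8, 19.7, 29.5 and 0 CPM in the resting bulge cells and 470, 715, 120 and 109 CPM in the healing ones (log2 fold change 3.71, SE 1.21, edgeR adjusted p = 0.238). The Atf3 groups did not overlap, and in the other cells no plate was above 25.5 CPM. Fos was at 818, 999, 272 and 269 CPM and then 5190, 8976, 860 and 515 CPM, high at 1w pw1 and within the resting range at 1w pw2.

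**Figure D5:**
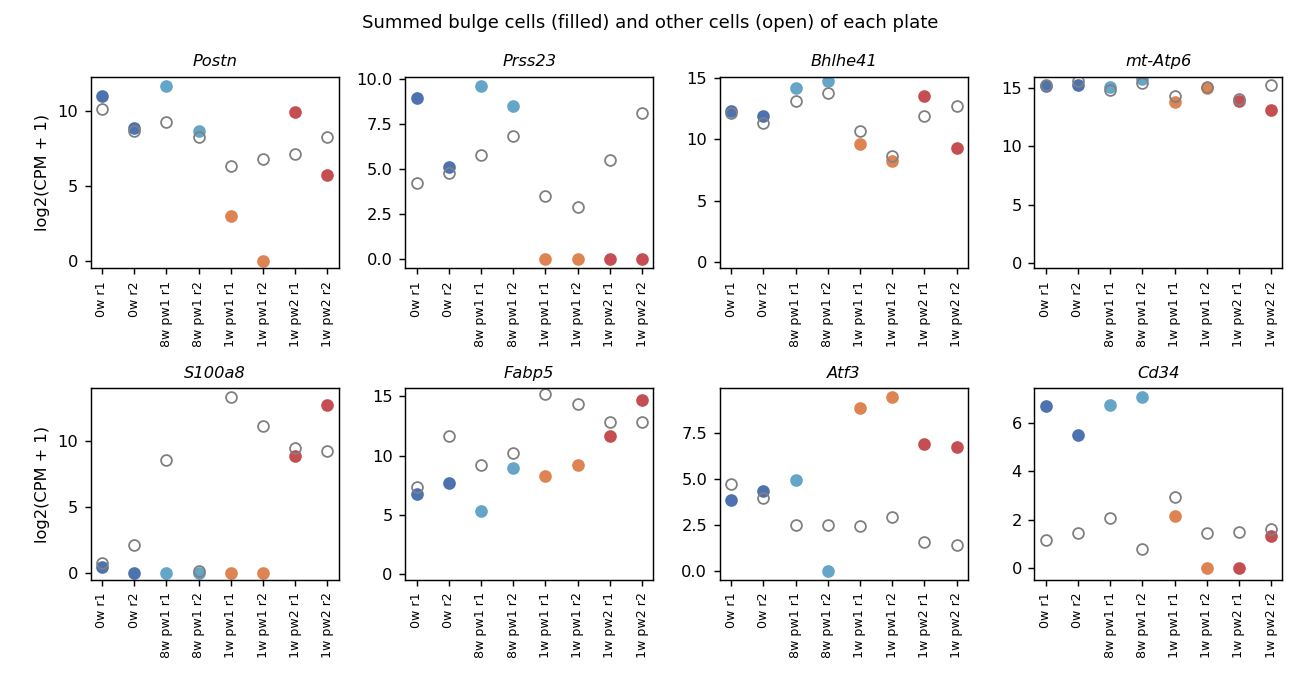
Level of 8 genes, as log2(CPM + 1), in the summed bulge cells (filled) and the summed other cells (open) of each plate, in the order 0w, 8w pw1, 1w pw1, 1w pw2. Prss23 is at 0 in the bulge cells of all 4 healing plates, Atf3 is higher there than on any resting plate, and S100a8 appears in bulge cells only at 1w pw2, apart from 0.41 CPM on 0w replicate 1.

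After the second wound 5 of 9377 genes passed against 0w (0.0533% called, 503 under 0.05 before adjustment, 61 in DESeq2). Cstdc5, S100a8, Sprr2a2 and Fabp5 rose and mt-Atp6 fell. Against 8w pw1, 4 genes passed (0.0427% called, 630 under 0.05 before adjustment, 93 in DESeq2), with S100a8 and Cstdc5 higher and mt-Atp6 and Gm20594 lower. S100a8, an alarmin of wounded epidermis, was at 464 and 6679 CPM on the 1w pw2 plates, at 0.41 and 0 CPM at 0w and at 0 on both 8w pw1 plates. Its pooled level was 4848-fold a floor of 3 counts at 8w pw1, a ratio of pooled reads that leaves out the spread between cells. The contrast with 8w pw1 was called (edgeR adjusted p = 0.0013). Without replicate 2 of 1w pw2, which held most of these reads, the ratio to the floor was 395-fold and S100a8 was not called. Cstdc5, a stefin A cysteine protease inhibitor with close copies in the genome, was at 538 and 5902 CPM and at 0 on both 0w plates (edgeR adjusted p = 0.00111). Fabp5, a fatty acid carrier of keratinocytes, was at 109 and 204 CPM at 0w and at 3203 and 25992 CPM at 1w pw2. In the other cells S100a8 reached its highest levels after the first wound, at 10241 and 2306 CPM, where the bulge cells had 0.

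On each 1w pw2 plate 1 cell held most reads of these 4 genes. Without replicate 2 of 1w pw2 the adjusted p against 0w was 0.283 for S100a8, 0.0839 for Cstdc5 and 0.709 for Fabp5, and Sprr2a2 was not called without replicate 1 or 2 of 0w (0.561 and 0.136). On replicate 1 the cell ranked 65 of 70 held 1659 CPM of S100a8 and 11240 CPM of Fabp5. On replicate 2 the cell ranked 55 held 10411 CPM of S100a8 and 40572 CPM of Fabp5, and it gave 64% of the plate's counts. Both cells also had the differentiation keratins, with Krt10 at 21287 and 7970 CPM and Krt1 at 4084 and 2575 CPM, and they had reads of 2 and 4 of the 6 genes of the rule. The other 4 bulge cells of 1w pw2 held 0 to 61.1 CPM of S100a8. With the 62 bulge cells whose Krt1 was below 5 on the log2 scale, none of the 4 genes was called, and Fabp5 was slightly lower at 1w pw2 (log2 fold change −0.98, edgeR adjusted p = 0.935). That filter removed both cells with high Krt10 and left 1 and 2 bulge cells on replicates 1 and 2 of 1w pw2. The loss of these calls thus follows from the choice of cells and is no separate test. In the fit on low Krt1 cells Prss23 (−12.22, edgeR adjusted p = 0.000183), Postn (−5.89, adjusted p = 0.00123) and mt-Atp6 (−2.15, adjusted p = 0.000138) kept their calls between healing and resting skin. Prss23 was at 0 in every healing bulge cell, so the filter could not change its healing values. With cells thinned to 20000 counts no gene was called in that comparison.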

How the data were processed

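Single cells were profiled by a modified Smart-seq2 protocol with no molecular identifiers, so counts are reads and not molecules. Per the study's methods the authors estimated counts with Salmon 0.13.1 on Ensembl release 101, dropped cells under 1000 genes or over 50% mitochondrial reads, and deposited the estimated counts per gene, of which 96.6% were whole numbers. The table held 15652 genes in 696 cells. How transcripts were summed to genes is not given in the sources used here.

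Members and gene lists were chosen with earlier results of these data known. The score, the ratios and the lists were computed in Python 3.11.15 with a pseudocount of 1 CPM. Counts of the bulge cells were summed per plate, rounded and tested with edgeR 4.0.16 (quasi-likelihood, TMM, filterByExpr, Benjamini-Hochberg adjustment below 0.05 and over 2-fold) in R 4.3.3, with the plate as replicate, after a check on simulated data. The difference between bulge and other cells was an interaction term. A minimum of 5 bulge cells per plate had been set, which no healing plate reached, so contrasts with healing skin used all plates with at least 1 cell. DESeq2 1.42.0 was the alternative. Genes outside the lists were named by rule: the 25 highest and 10 lowest median ratios on resting plates, and the called genes of each contrast with mean log2 CPM of at least 4, without predicted genes. Positions are from GENCODE vM21 (GRCm38).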

Additional observations from a re-analysis of the deposited data

Results flagged for a closer look

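Prss23 and Pdlim3 were singled out because their response to healing differed between the bulge cells and the other cells of the same plates, by an interaction term in edgeR. The fitted log2 difference was −15.96 for Prss23 and −13.96 for Pdlim3, and both genes were at 0 in all 10 bulge cells from healing skin. Prss23 kept its call among the 50 highest cells (edgeR adjusted p = 0.00581) and lost it among the 100 highest (0.194) and with cells thinned to 20000 counts (0.103). Pdlim3 lost its call in all 3 settings (0.106, 0.690 and 0.347). With the bulge cells of low Krt1 alone both were called (edgeR adjusted p = 0.00157 for Prss23 and 0.0143 for Pdlim3). The 50 highest cells and the low Krt1 cells are drawn from the same bulge cells, so their healing values of both genes stayed at 0. A call kept there is no separate test. Reads of Pdlim3 were found in 17 of the 60 resting bulge cells and those of Prss23 in 27.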

How the results depend on the processing

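Few cells limit the healing contrasts: those plates hold 1 to 3 bulge cells, and 1 cell can set a plate's sum. The design asked for at least 5 bulge cells per plate, and for values with no test where a time point had no such plate. The fit on plates with at least 1 cell, used for every healing contrast, departs from that rule. The other settings on that base and the comparison with other basal cells were chosen after seeing the data. So were the score on other genes and the low Krt1 setting. Causes of the changes below were not tested.

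Between bulge and other cells, 116 widely detected genes differed over 2-fold on all 4 resting plates, 184 by the median over cells, 59 against other basal cells and 175 to 253 with 1 plate left out. A score on Cd34, Lhx2, Krt15, Tbx1, Dkk3 and Npnt put 71.4% of its cells on resting plates, which is no independent check, since these genes were already known to be higher in the bulge cells there. By that score 8w pw1 replicate 2 held 7 cells and 1w pw2 replicate 1 held 8, so the resting plates no longer all lay above the healing ones. The most cells, 16, lay on 8w pw1 replicate 1, against 13 and 14 on the 0w plates. In 1w pw1 against 0w (0 calls), 18 genes passed with no filter on low counts, 3 with the 50 highest cells, 127 in DESeq2 and 0 to 27 with 1 plate left out. In 8w pw1 against 0w (0 calls) these were 26 with no filter, 75 in DESeq2 and 0 to 253. In 1w pw2 against 0w (5 calls) they were 13 with no filter, 9 with the 50 highest cells, 0 with thinned cells, 61 in DESeq2 and 4 to 16. In 1w pw2 against 8w pw1 (4 calls) they were 24, 12, 0, 93 and 3 to 21 in that order, and 1 with the 100 highest cells. Between healing and resting skin (9 calls) they were 71, 45, 0, 232 and 1 to 51, with 14 when every cell was scaled equally and 30 with low Krt1 cells. For bulge minus other cells (2 calls) they were 9 with no filter, 24 and 1 with the 50 and 100 highest cells, 1 with thinned cells, 18 with low Krt1 cells and 0 to 3. Fabp5 in 1w pw2 against 0w turned to −1.02 with the 50 highest cells and −0.98 with low Krt1 cells.

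Replicate numbers did not pair the plates: deviations of same-numbered plates correlated with r from 0.004 to 0.089. With the replicate number as a block, 12 genes passed in 1w pw1 against 0w, 0 in 8w pw1 against 0w, 14 in 1w pw2 against 0w, 16 in 1w pw2 against 8w pw1 and 36 between healing and resting skin.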
